A study of Mus musculus with 2688 samples.

Results

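Cycling embryonic microglia were taken here as single sorted wells of embryonal CD1 mice with reads of both Mki67 and Top2a. Mki67 encodes a protein of the surface of mitotic chromosomes, and Top2a encodes the topoisomerase that untangles replicated DNA. Members were chosen by the read counts of these genes: a well was taken when both reached at least 10 CPM, the counts scaled to a total of 1e6 gene counts in the well with spike-in RNA left out. The rule found 97 member wells among 644 embryonal wells that had been kept, and 2199 wells were kept in the whole series. The comparison class was the 422 embryonal wells without a single read of either gene. Another 125 wells lay between the classes: 49 had reads of Mki67 only, 71 of Top2a only, and 5 of both with 1 of the genes below the threshold.

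The series holds microglia of CD1 mice at 3 ages, named embryonal, 3 weeks and 16 weeks in the labels, and all are named WT. No treatment and no embryonic day is given for the wells used here. Microglia of embryonal forebrain, midbrain, cerebellum and spinal cord were separated on a Percoll gradient, stained for CD11b, CD45, Ly6C, Ly6G and CD206, sorted at 1 cell per well, and made into full-length SmartSeq2 libraries, which carry no molecular identifiers and do not keep the strand of a read. Each region had 4 replicates. The series design speaks of replicate mice with several regions taken from the same mouse, but no label ties a replicate to a particular mouse. The p-values of shares between regions measure the spread between region samples. Those of members against comparison wells measure how the difference within a region sample varies between region samples. Either spread may in part be technical. Region samples of the same mouse would not be independent, yet the main tests treat them as separate samples.

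Dividing cells copy their DNA in S phase and part the copies in mitosis. The enzymes of both steps are made in waves, with replication genes switched on by E2F factors at the entry to S phase and mitotic genes switched on later, toward G2 and mitosis, by a complex that holds MYBL2 and FOXM1. Microglia, the macrophages of the brain parenchyma, arise from yolk sac precursors and divide extensively while they spread through the embryonic brain, whereas most are out of the cell cycle in the adult.

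A kept well had at least 500 genes detected and at most 20% of its gene counts from mitochondrially encoded genes. Of 696 embryonal wells in plate columns 3 to 24, 48 had too few genes and 4 had a higher mitochondrial share. Forebrain and midbrain wells came from 1 plate and cerebellum and spinal cord wells from another, so regions were compared only within a plate. Kept embryonal wells held 900 to 1066342 gene counts with a median of 376336, and the median member well held 362373. Among 28 blank wells, which held a median of 3472 counts, 0 had reads of both genes and 1 had reads of either. No doublet caller was run, because 1 cell had been sorted into each well. For tests across genes, counts were summed per region sample (1 region of 1 replicate) and class. The fit used the 15 region samples with at least 3 wells in each class, which held 96 member and 412 comparison wells. Forebrain replicate 1 had 1 member well and could not enter. A member sum held 3 to 15 wells and 1012861 to 5316130 counts, and a comparison sum 9 to 36 wells and 3724602 to 15639840 counts.

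Mki67 and Top2a chose the wells, so their levels are a description. In member wells Mki67 ranged from 16.1 to 3847 CPM with a median of 653, and Top2a from 13.05 to 2887 CPM with a median of 718.7. Just inside the threshold lay a midbrain well with 13.05 CPM of Top2a, which was 1 read, and 339 CPM of Mki67. A forebrain well had 16.1 CPM of Mki67 and 288 CPM of Top2a. Just outside lay a midbrain well with 9.73 CPM of Mki67 and 350.4 CPM of Top2a, and a spinal cord well with 316 CPM of Mki67 and 2.45 CPM of Top2a. Across the 97 members the levels of both genes had a Spearman rho of 0.467, a description over wells that share plates and depth.

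The other genes given as markers of cycling cells were abundant in the sums of member wells. Levels in sums are CPM on TMM-scaled library sizes. Ccna2, the cyclin of S phase and G2, had 65.9, 559 and 962 CPM as the lowest, median and highest of the 15 member sums, against 0, 0.189 and 30.5 CPM in the comparison sums. Rrm2, a subunit of ribonucleotide reductase, had 68.7, 513 and 1105 CPM against 0, 5.76 and 46.7. Aurkb, the kinase of the chromosomal passenger complex, had 183, 319 and 1317 CPM against 0, 6.12 and 50.3. Ube2c, the ubiquitin-conjugating enzyme that works with the anaphase-promoting complex, had 25.1, 279 and 831 CPM against 0, 0.189 and 13.8. For all 4 markers the lowest member sum lay above the highest comparison sum. Reads of microglial genes were found in members too. In wells thinned to 43334 counts each, reads of P2ry12 and C1qa were present in 90 of 90 members, and in 381 and 383 of 385 comparison wells.

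The share of kept wells that were members differed widely between region samples. Over 4 replicates it was 7.65% ± 2.16 (SD) in forebrain with a range of 6.25 to 10.9%, and 15.9% ± 4.25 in midbrain with a range of 13.3 to 22.2%. It was 12.97% ± 3.87 in cerebellum with a range of 10.6 to 18.8%, and 23.9% ± 11.9 in spinal cord with a range of 8.70 to 36.6%. In all there were 12 members of 151 wells in forebrain, 26 of 167 in midbrain, 18 of 152 in cerebellum and 41 of 174 in spinal cord. Every midbrain replicate lay above every forebrain replicate. The mean difference was 8.22 percentage points (exact permutation test, two-sided, p = 0.0286, the smallest that 70 assignments allow, adjusted over 2 pairs of regions p = 0.0571), so it missed the threshold of 0.05 after adjustment. Spinal cord exceeded cerebellum by 10.9 points (exact permutation p = 0.143, adjusted p = 0.143), and the ranges overlapped. Spinal cord replicate 1, at 8.70%, lay below all cerebellum replicates. Each replicate was left out in turn, and without this one the difference was 16.0 points. Every remaining spinal cord replicate then lay above every cerebellum replicate. The adjusted exact permutation p of 0.0286 was the smallest that these replicates allow. Replicate 1 of forebrain and of cerebellum rested on 16 kept wells each, and a single such well moves those shares by several points. Because a well with more reads shows more genes, depth bears on whether both genes are seen. Depth differed between forebrain and midbrain. The median gene counts of comparison wells were 115658, 71100 and 246096 in forebrain replicates 2 to 4. In the midbrain replicates they were 376954.5 to 684813. Member wells had medians of 330133 to 546897 in the same forebrain replicates and 106766 to 615679 in midbrain. The shares were also compared between regions in thinned wells and in wells with at least 1000 genes, with results not reported here.

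**Figure D1:**
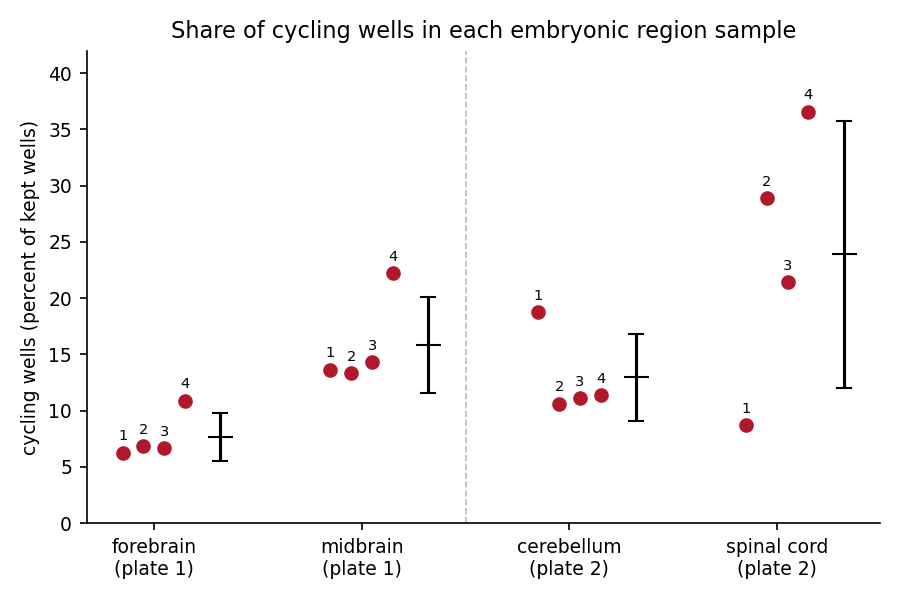
Share of kept wells with both Mki67 and Top2a at 10 or more CPM, in percent (vertical axis), in the 4 embryonal regions (horizontal axis). Points are the 4 replicates of a region, numbered, beside their mean and SD, and a dashed line parts the plates; midbrain points lie at 13.3 to 22.2%, above the forebrain points at 6.25 to 10.9%, and spinal cord points spread from 8.70 to 36.6%.

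After birth such wells were few. The same rule found 19 members among 1555 kept wells of 3-week and 16-week microglia. At 3 weeks the spinal cord gave 7 of 145 wells (4.83%, exact 95% interval 1.96 to 9.69%), the highest of the postnatal groups. The other 9 postnatal groups lay between 0 and 2.33%. Cerebellum had 0 of 167 wells at 3 weeks, which allows a share of up to 1.80% counted as 3 wells of the total and of up to 2.18% by the exact 95% interval. It had 0 of 152 at 16 weeks, which allows up to 1.97% and 2.40% in the same way. Ages lay on different plates, so age and plate cannot be told apart. Of the 19 postnatal wells, 11 had reads of Ccna2, 10 of Cdk1, 8 of Plk1 and 19 of Csf1r.

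Member wells showed more genes than comparison wells, and their read depth had no steady direction across region samples. The rule asked for reads of both genes in members and of neither in comparison wells. Numbers of detected genes are therefore not independent of the rule, and its part in them was not tested. The ratio of median gene counts per well was 1.01 over 15 region samples, with 6 of 15 higher in members (exact sign-flip permutation, two-sided, p = 0.953). The sign of this difference changed when single region samples were left out. Members had 814 more genes per well, higher in 13 of 15 region samples (exact permutation, adjusted over 5 measures, p = 0.00254). With every well thinned to 43334 counts the difference was 695 genes, higher in 14 of 15 (adjusted exact permutation p = 0.000916). The class medians per region sample then were 3008.5, 3836 and 4520 genes (lowest, median, highest) in members and 2377, 3071 and 3407.5 in comparison wells. Gene counts per spike-in count, a measure of RNA per well relative to a constant amount of added RNA, were 1.34-fold higher in members and higher in 13 of 15 region samples (adjusted exact permutation p = 0.00254). They were 728, 1178 and 1965 in members and 632, 898 and 1148 in comparison wells, so the ranges overlapped. With class means in place of medians this difference missed the threshold (log2 ratio 0.28, adjusted exact permutation p = 0.103, against 0.42 with medians). The mitochondrial share differed by 0.34 percentage points (adjusted exact permutation p = 0.634).

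**Figure D2:**
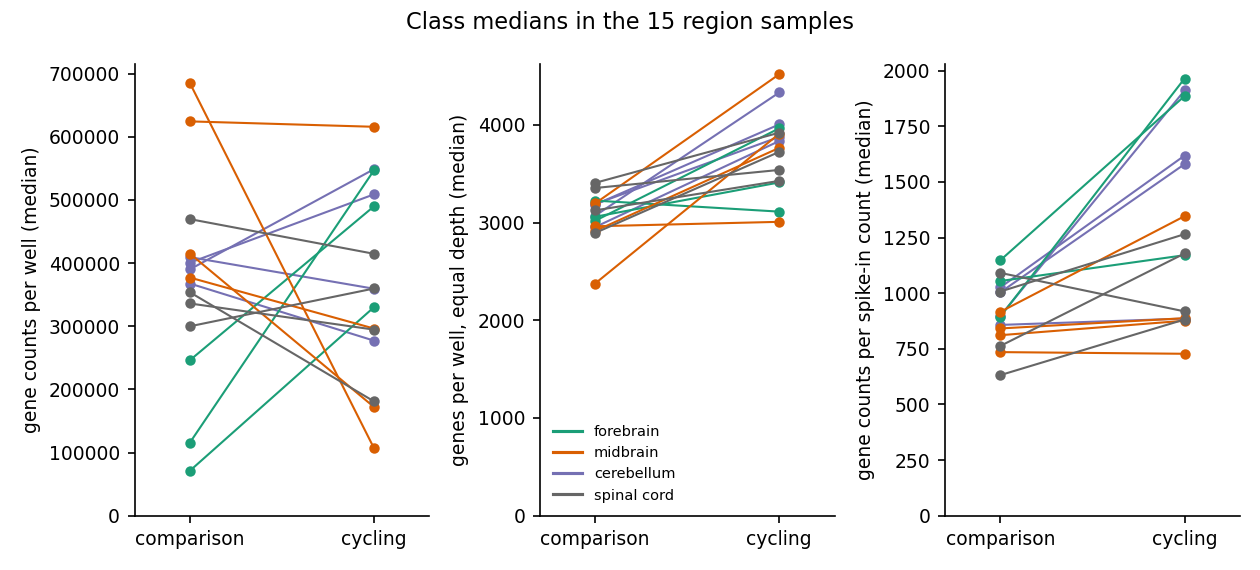
Class medians of gene counts per well, genes with reads per well thinned to 43334 counts, and gene counts per spike-in count (vertical axes, from 0), for comparison and cycling wells. Each line joins the classes of 1 of 15 region samples, coloured by region; lines cross in the first panel, rise in 14 of 15 in the middle panel and in 13 of 15 in the last.

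Across the transcriptome, members and comparison wells of the same region sample were compared with edgeR's quasi-likelihood test, the region sample as a block. All adjusted p-values of single genes below are from that test with Benjamini-Hochberg adjustment over all genes tested, and a gene was called at an adjusted p under 0.05. Log2 fold changes are members over comparison, with their standard error. Of 9486 genes tested, 560 were called (5.9% of those tested): 236 were higher in members (2.49%) and 324 were lower (3.42%), so 42.1% of the calls were higher. Of the 236 higher genes, 126 belonged to a list of division genes. The split between higher and lower calls moved with the setting, and a member sum held fewer wells than its comparison sum. The median log2 fold change of all genes tested was -0.68. With as many comparison wells as members in each region sample, matched in gene counts, that median was 0.17, and 192 genes were higher and 27 lower of 7601 tested (87.7% higher). Of these, 154 and 27 were also called in the same direction with all wells. The higher share of the calls was 72.6% without the region-sample block, 20.2% with DESeq2, 27.4% without a filter on low counts and 62.1% with at least 5 wells per class. No gene turned its direction between calls of any of these settings. Forebrain replicate 2, with 3 member wells, stood apart among the member sums; without it 266 genes were higher and 247 lower.

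The division genes were ordered by the step they serve, beginning with the start of replication. Of 17 tested genes of origin licensing and the replicative helicase, 5 were higher in members and 0 lower, with a list median of 1.22 against -0.68 over all genes tested, and 3 of 16 were called at matched wells. Mcm5, a subunit of the helicase, had 129, 590.2 and 1061 CPM in member sums and 47.4, 159 and 365 CPM in comparison sums. It was higher in 14 of 15 region samples, though the ranges overlapped, with a log2 fold change of 1.86 ± 0.33 (adjusted p = 0.00108). At matched wells its value was 3.23 with an adjusted p of 0.0955, so that call was lost. Gmnn, whose product geminin blocks a further round of licensing, had 12.6, 87.3 and 390.0 CPM against 0.828, 6.43 and 22.5, a log2 fold change of 3.26 ± 0.60 (adjusted p = 0.00145, and 0.0591 at matched wells). Cdc45, which completes the helicase, was higher by 5.88 ± 1.23 (adjusted p = 0.00553). Gins4, another helicase partner, had a value of 0.44 ± 0.52 and was not called (adjusted p = 0.614).

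DNA synthesis and the supply of nucleotides gave 12 higher genes of 31 tested and 0 lower, with a median of 2.01, and all 31 values lay above 0. At matched wells 17 of 30 were higher. Tyms, the thymidylate synthase, had 139, 218.1 and 496 CPM in member sums against 5.21, 20.7 and 64.4 CPM, and the ranges did not overlap (log2 fold change 3.56 ± 0.33, adjusted p = 4.63e-07). Uhrf1, which brings the maintenance methyltransferase to newly copied DNA, had 113, 182 and 526 CPM against 0.276, 14.5 and 36.1 (4.18 ± 0.47, adjusted p = 4.26e-06), again without overlap. The gene listed as 2810417H13Rik, also called Pclaf, encodes a partner of the sliding clamp PCNA and was higher by 7.55 ± 1.10 (adjusted p = 0.000116). Pold3, a subunit of DNA polymerase delta, had a value of 0.09 ± 0.72 (adjusted p = 0.943).

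Of the cyclins, their kinases and phosphatases, 10 of 17 tested genes were higher and 0 lower, with a median of 3.78. Cdk1, the kinase that drives entry to mitosis, had 87.8, 435 and 789 CPM in member sums and 14.1, 39.4 and 79.8 CPM in comparison sums. The classes did not overlap, although the lowest member sum, forebrain replicate 2, was close to the highest comparison sum. Its log2 fold change was 3.50 ± 0.30 (adjusted p = 1.75e-07). Cks1b, a small subunit of the cyclin-dependent kinases, was higher by 3.45 ± 0.36 (adjusted p = 1.8e-06). Ccnb1, the mitotic cyclin, had 2.35, 168 and 451 CPM against 0, 0.233 and 10.1, and only forebrain replicate 2 lay within the range of the comparison sums (8.02 ± 0.91, adjusted p = 5.58e-06). Ccnd1, the cyclin that answers growth factors, had nearly the same levels in both classes, 90.8 CPM as the median of members and 87.2 CPM as that of the comparison (-0.26 ± 0.34, adjusted p = 0.641). Cdc25a, a phosphatase of the G1 to S step, was not called (0.05 ± 0.74, adjusted p = 0.967).

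Inhibitors of the cyclin-dependent kinases shared a list with the pocket proteins, the retinoblastoma family that holds E2F factors back. Of 7 tested, 1 was higher and 0 lower, with a median of -0.29. The higher gene was Cdkn2c, an inhibitor of CDK4 and CDK6, with 0, 71.6 and 287 CPM against 0, 1.07 and 12.7 (6.25 ± 1.34, adjusted p = 0.00647). Cdkn1a, the inhibitor p21, had 0, 9.4 and 110.0 CPM against 10.2, 37.1 and 83.6 and was not called (-2.35 ± 1.18, adjusted p = 0.24). Cdkn1b, the inhibitor p27, was not called (-0.29 ± 0.75, adjusted p = 0.824). Of 12 tested transcription factors of division genes, 4 were higher, with a median of 1.23. Mybl2 had a median of 34.3 CPM in member sums and Foxm1 one of 89.3 CPM, and both had a median of 0 in comparison sums (adjusted p = 3.31e-05 and 4.9e-05). E2f8, a repressor of the E2F family, was also higher (adjusted p = 0.00667), whereas the activator E2f1 was not called (0.36 ± 1.14, adjusted p = 0.86). Of 14 tested genes of repair during replication, 8 were higher. Timeless, of the replication fork, was not called (-0.04 ± 0.91, adjusted p = 0.98).

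The structure of chromosomes, the kinetochore, the spindle and cytokinesis had a list each. Of condensin, cohesin and chromatin genes 17 of 21 tested were higher, of kinetochore and spindle checkpoint genes 20 of 23, of spindle, motor and mitotic kinase genes 26 of 26, and of chromosomal passenger and cytokinesis genes 13 of 13. Their medians were 3.47, 7.05, 7.38 and 8.26, and 0 genes of these lists were lower. At matched wells the counts were 14 of 19, 17 of 19, 23 of 23 and 12 of 12. The difference between these lists and those of replication was not tested, and genes at 0 in most comparison sums have fitted values that depend on the small count added by the fit, so these medians are no measure of fold.

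Ncapd2, a condensin subunit, had 41.2, 397 and 679 CPM against 0, 3.30 and 26.4 without overlap (7.20 ± 0.75, adjusted p = 1.8e-06). Smc2, the condensin ATPase, was higher by 4.04 ± 0.47 (adjusted p = 8.47e-06). Hmgn2, a nucleosome-binding protein of many cells, was not called (0.06 ± 0.68, adjusted p = 0.96). Cenpf and Cenpe, proteins of the outer kinetochore, had member medians of 174 and 295 CPM and comparison medians of 0.923 and 1.23 CPM (adjusted p = 1.01e-06 and 2.09e-06). Bub1b, the checkpoint kinase BubR1, had 3.14, 350.4 and 1270.2 CPM against 0, 0.157 and 89.2, with 1 member sum, forebrain replicate 2, inside the comparison range (adjusted p = 1.97e-06). Bub3, its partner, had 6.27, 333 and 745 CPM against 75.9, 162 and 308 and was not called (0.74 ± 0.38, adjusted p = 0.25).

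The largest fitted difference was that of Spag5, which encodes the spindle protein astrin. It had 0.784, 137 and 338 CPM in member sums and at most 0.235 CPM in comparison sums, with 5321 counts in members against 4 counts in 412 comparison wells (adjusted p = 1.87e-10). Plk1, the polo-like kinase of mitosis, had 1.57, 254 and 434 CPM against at most 0.814, or 8296 counts against 13 (adjusted p = 1.29e-07). Prc1, which bundles microtubules of the spindle midzone, had 8.63, 191 and 493 CPM against at most 2.39, or 7743 counts against 30 (adjusted p = 3.09e-08). For these 3 genes the classes did not overlap in any pair of sums, and forebrain replicate 2 was the lowest member sum for each. Kif20a, the kinesin that brings passengers to the midzone, had 21.96, 322 and 566 CPM against 0, 0.563 and 7.92 (8.26 ± 0.70, adjusted p = 1.56e-07). Tubb5, a beta-tubulin present in every sum, had 2647, 4158 and 6842 CPM against 868, 1419.9 and 2069.5, a log2 fold change of 1.51 ± 0.12 (adjusted p = 1.29e-07). Reads of such gene families can be split between near copies; how multiply mapped reads were counted is not given in the sources used here.

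Of 11 tested genes of the anaphase-promoting complex and its partners, 6 were higher and 0 lower, with a median of 1.15. Cdc20, which activates the complex in mitosis, had 3.14, 264 and 951 CPM against 0, 3.18 and 65.6 (6.69 ± 0.92, adjusted p = 5.85e-05). Pttg1, the securin that the complex destroys, was higher by 3.99 ± 0.77 (adjusted p = 0.00248). Anapc5, a core subunit, had 230.0, 355 and 840.2 CPM against 110.3, 179.8 and 287 (1.14 ± 0.18, adjusted p = 0.000413). Cdc16, another core subunit, was not called (-0.46 ± 0.77, adjusted p = 0.725).

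**Figure D3:**
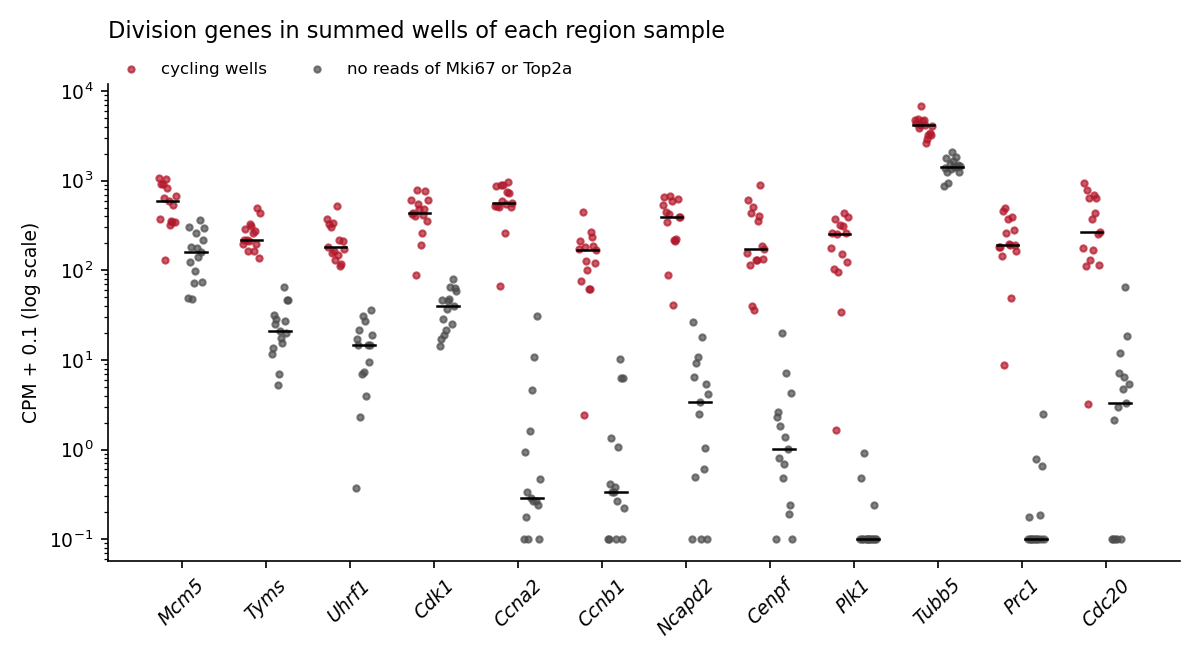
Levels of 12 division genes in the sums of cycling wells (red) and of comparison wells (grey), as CPM + 0.1 on a log axis, 1 point for each of 15 region samples; bars are medians. Tyms, Uhrf1, Cdk1, Plk1, Tubb5 and Prc1 have every red point above every grey point, and the lone low red points of Ccnb1, Plk1, Prc1 and Cdc20 are forebrain replicate 2.

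Promoter letters are shown for 7 of the higher genes because mitotic and replication genes are known for different elements before their start sites: the CCAAT box and the cell cycle homology region (CHR) in mitotic genes and the E2F element in replication genes. The genes were chosen after their values were seen, among genes whose RefSeq start lay within 50 bases of a GENCODE transcript start. They were the 3 with the largest fitted differences there and 2 mitotic genes whose promoter held both CHR and CCAAT letters. The other 2 were replication genes whose promoter held E2F letters. Pbk, which ranked between Plk1 and Prc1 in fitted difference, did not enter. Each line gives the 250 bases before the RefSeq start site on the gene's strand, 5′ to 3′, in build GRCm38.p6, with capitals at the letters searched on both strands. The CCAAT box was searched as CCAAT. The CHR was searched as TTTGAA or TTCGAA, and the E2F element as GCGGGAA or GCGCGAA.
Spag5: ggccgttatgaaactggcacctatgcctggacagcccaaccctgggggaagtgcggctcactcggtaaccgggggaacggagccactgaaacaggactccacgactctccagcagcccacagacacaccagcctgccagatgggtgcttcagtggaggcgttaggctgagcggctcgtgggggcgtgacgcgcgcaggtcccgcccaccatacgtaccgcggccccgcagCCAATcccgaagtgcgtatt
Plk1: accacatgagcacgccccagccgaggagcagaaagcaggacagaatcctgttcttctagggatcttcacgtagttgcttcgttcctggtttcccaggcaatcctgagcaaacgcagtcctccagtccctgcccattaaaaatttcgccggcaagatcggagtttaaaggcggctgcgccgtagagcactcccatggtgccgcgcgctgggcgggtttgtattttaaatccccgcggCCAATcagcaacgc
Prc1: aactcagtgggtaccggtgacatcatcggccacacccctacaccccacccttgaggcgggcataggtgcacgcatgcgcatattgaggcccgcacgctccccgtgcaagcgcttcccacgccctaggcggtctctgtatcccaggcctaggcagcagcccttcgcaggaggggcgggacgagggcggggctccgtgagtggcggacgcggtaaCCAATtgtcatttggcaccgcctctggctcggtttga
Kif11: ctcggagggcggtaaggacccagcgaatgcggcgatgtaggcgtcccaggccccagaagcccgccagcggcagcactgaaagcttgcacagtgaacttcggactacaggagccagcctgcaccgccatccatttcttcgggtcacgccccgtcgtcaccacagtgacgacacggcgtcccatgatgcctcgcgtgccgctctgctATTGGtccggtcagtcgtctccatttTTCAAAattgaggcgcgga
Tubb4b: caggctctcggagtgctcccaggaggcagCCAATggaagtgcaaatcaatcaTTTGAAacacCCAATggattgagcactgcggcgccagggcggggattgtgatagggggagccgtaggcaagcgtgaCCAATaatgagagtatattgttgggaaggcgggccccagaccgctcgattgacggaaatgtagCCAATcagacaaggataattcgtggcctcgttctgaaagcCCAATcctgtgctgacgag
Uhrf1: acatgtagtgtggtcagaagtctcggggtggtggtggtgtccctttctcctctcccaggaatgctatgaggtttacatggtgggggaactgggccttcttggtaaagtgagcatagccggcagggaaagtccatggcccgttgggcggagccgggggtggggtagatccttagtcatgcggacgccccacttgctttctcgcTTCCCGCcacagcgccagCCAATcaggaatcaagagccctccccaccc
Rrm1: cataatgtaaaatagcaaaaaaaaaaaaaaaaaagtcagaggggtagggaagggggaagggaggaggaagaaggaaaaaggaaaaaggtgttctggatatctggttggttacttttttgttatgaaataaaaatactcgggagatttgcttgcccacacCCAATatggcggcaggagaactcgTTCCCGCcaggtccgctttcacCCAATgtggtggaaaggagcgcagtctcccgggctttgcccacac

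Spag5 lies at chr11:78301341-78301590 on the plus strand, with CCAAT 20 bases before its start. Plk1 is shown at chr7:122159185-122159434, plus strand, with CCAAT 14 bases before the start, and Prc1 at chr7:80294201-80294450, plus strand, with CCAAT 37 bases before. Kif11, the kinesin that pushes spindle poles apart, is at chr19:37376132-37376381, plus strand. It has a reversed CCAAT 45 bases before and a reversed CHR, TTCAAA, 19 bases before the start. Tubb4b, a beta-tubulin, is at chr2:25224703-25224952, minus strand, and holds 5 CCAAT boxes and 1 CHR, the latter 198 bases before the start. Uhrf1, at chr17:56303087-56303336 on the plus strand, has a reversed E2F element, TTCCCGC, 48 bases before and CCAAT 30 bases before the start. Rrm1, a subunit of ribonucleotide reductase, is at chr7:102441445-102441694 on the plus strand, with TTCCCGC 67 bases before and CCAAT 91 and 45 bases before the start.

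Over 27025 promoters of that table, 34.5% held CCAAT, 17.4% held CHR letters, 6.21% held both and 5.02% held E2F letters. Of 65 mitotic genes higher in members, 56 matched the table: 66.1% held CCAAT, 28.6% CHR, 23.2% both and 5.36% E2F letters. Of 17 replication genes higher in members, 14 matched: 71.4% held CCAAT, 21.4% CHR, 21.4% both and 28.6%, 4 of 14, E2F letters. The whole mitosis lists, called or not, had nearly the same shares as their higher genes. Of their 77 genes 67 matched: 65.7% held CCAAT, 28.4% CHR, 22.4% both and 4.48% E2F letters. Of all 50 replication genes 40 matched: 24 held CCAAT, 8 CHR, 7 both and 14 E2F letters. The shares therefore describe the lists, and a link of the letters to being higher in members was not tested. Of 17 microglial genes lower in members, 13 matched, of which 1 held CCAAT and 0 CHR letters. A match of letters is a description and not a bound site. In the sequences shown, matches of different motifs did not overlap.

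Of the genes higher in members but outside the division lists, the 10 with the largest fitted differences were Troap, Aspm, Ankle1, Fam64a, Neil3, Gtse1, Shcbp1, Trim59, Hist1h1b and Efcab11. Troap, a protein of spindle microtubules, had 0, 84.9 and 182 CPM in member sums and at most 0.923 CPM in comparison sums. Aspm, a spindle pole protein whose human counterpart is mutated in microcephaly, had 1.57, 106 and 539 CPM against at most 2.48. Neil3, a DNA glycosylase, had 0, 152 and 283 CPM against at most 8.52. Hist1h1b, a replication-dependent linker histone, had 6.64, 31.6 and 105 CPM against at most 2.26. Forebrain replicate 2 gave the lowest member level of Troap and Aspm.

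The 3 member wells of forebrain replicate 2 stood apart for these genes. Of the 126 division genes called higher, 70 had their lowest member level in that region sample, and 17, the next most, in midbrain replicate 2.

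Seen well by well, most members carried far more division genes than any comparison well. In wells thinned to 43334 counts, 90 members, 104 wells between the classes and 385 comparison wells remained. Of 210 division genes other than Mki67 and Top2a, a member well showed a median of 112.5 with a range of 24 to 165. A comparison well showed 23 with a range of 2 to 78, and a well between the classes 43. In 68 of 90 members the number exceeded that of every comparison well, and for the 77 mitosis genes this held in 74 of 90. For the 50 replication genes it held in 17 of 90. The medians of mitosis genes were 47 in members and 8 in comparison wells, and those of replication genes 23 and 6. In 59 comparison wells the number of replication genes reached the lower quartile of members.

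Single genes showed the same contrast. Reads of Plk1 were present in 58 of 90 members, 9 of 104 wells between the classes and 1 of 385 comparison wells. Spag5 was read in 47 of 90 members and 0 of 385 comparison wells, which allows a share of up to 0.779% of wells with a read. Ccna2 was read in 74 of 90 members and 6 of 385 comparison wells. Other division genes were read in more comparison wells. Mcm5 was read in 68 of 90 members and 86 of 385 comparison wells, Tyms in 69 and 55, and Cdk1 in 76 and 77. Tubb5 was read in 88 of 90 members and 381 of 385 comparison wells, so its difference lay in level. Intervals and limits cover counting error only.

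Members varied in which division genes were read. Over the 90 thinned members, replication and mitosis genes per well had a Spearman rho of 0.215 and a Pearson r of 0.268, a description over wells that share plates and libraries. Reads of the mitotic cyclin Ccnb1 and of Ccne2, a cyclin of the G1 to S step, were present together in 17 members. In 45 only Ccnb1 was read, in 9 only Ccne2, and in 19 neither. Plk1 and Rrm2 were read together in 38 members, Plk1 alone in 20, Rrm2 alone in 22 and neither in 10. A gene of low level can be missed in a thinned well, so absence of a read is not absence of the transcript.

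**Figure D4:**
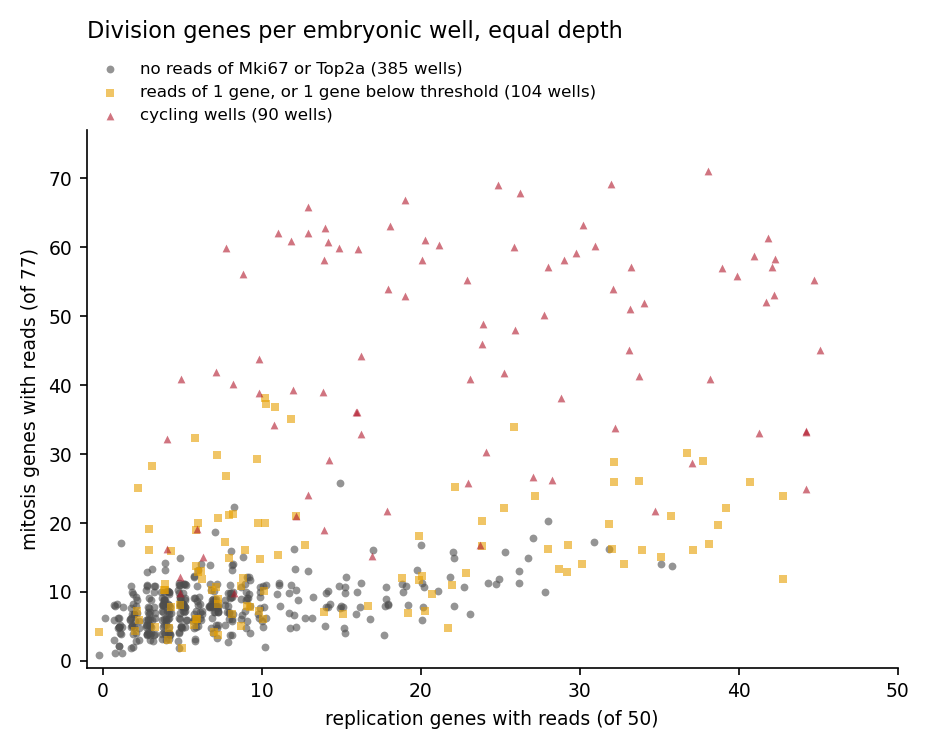
Number of replication genes of 50 (horizontal axis) and of mitosis genes of 77 (vertical axis) with reads in each embryonal well thinned to 43334 counts, with a small jitter. Triangles are cycling wells, squares wells between the classes and circles comparison wells; 74 of 90 triangles lie above every circle on the mitosis axis and 17 of 90 beyond every circle on the replication axis.

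Genes that were lower in members included many of the microglial and lysosomal programme. Counts in these lists are read against the 3.42% of all genes tested that were lower. Among the 24 homeostatic microglia genes tested, 12 were lower and 0 higher, and all 24 values lay below 0. The list median was -0.47, which was less negative than the -0.68 of all genes tested. At matched wells it was -0.41 against 0.17 over all genes, and 4 of the 24 were lower. Leaving out spinal cord replicate 4, the sum with most member wells, left 6 lower. On the plate of forebrain and midbrain alone 0 were lower, and on the plate of cerebellum and spinal cord 6.

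C1qa, a chain of the complement component C1q, had 1249.9, 2180.0 and 2956 CPM in member sums against 2123, 3006 and 3625 CPM. It was lower in 13 of 15 region samples, with overlapping ranges (-0.59 ± 0.10, adjusted p = 0.00124; at matched wells -0.63, adjusted p = 0.00126). Ctss, the cathepsin S of antigen-presenting cells, had 2282, 2841 and 4418 CPM against 2969.9, 4371 and 5738 (-0.52 ± 0.10, adjusted p = 0.00177, and 0.0229 at matched wells). P2ry12, the ADP receptor of ramified microglia, was lower by -0.56 ± 0.15 (adjusted p = 0.0358, and 0.0213 at matched wells). Sparc, a matricellular protein of microglia, was lower by -0.67 ± 0.15 (adjusted p = 0.0109, and 0.00315 at matched wells). Other defining genes were not called: Tmem119 had a value of -0.22 ± 0.25 (adjusted p = 0.592), Cx3cr1, the fractalkine receptor, of -0.18 ± 0.16 (adjusted p = 0.488), and Fcrls of -0.17 ± 0.09 (adjusted p = 0.28).

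The list of phagocytic and disease-associated microglia had a median of -0.79, against -0.68 over all genes tested. Of its 19 tested genes 1 was lower at matched wells, and with all wells 5 were lower and 0 higher. They were Apoe, Lyz2 and the cathepsins Ctsb, Ctsd and Ctsl, proteases of the lysosome that also stand in the lysosome list. The count was 3 without forebrain replicate 3 or 4, midbrain replicate 3, or spinal cord replicate 2 or 4. Apoe, the lipid carrier, had 2155, 9006.5 and 14737 CPM against 10351, 16266 and 24568 and was lower in 14 of 15 region samples (-0.83 ± 0.14, adjusted p = 0.000911, and 0.00581 at matched wells). Forebrain replicate 2 was the exception. Lyz2, the lysozyme of macrophages, was lower by -1.04 ± 0.27 (adjusted p = 0.0217). The call on Lyz2 was lost at matched wells (-0.63, adjusted p = 0.58), without the region-sample block, with at least 5 wells per class and on either plate alone. Ctsb, the cathepsin B, had 5962, 7469 and 33329 CPM against 9119, 13423 and 21907, with its highest member sum in forebrain replicate 2 (-0.54 ± 0.12, adjusted p = 0.00795). At matched wells Ctsb was not called (-0.29, adjusted p = 0.475).

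The lysosome list had a median of -0.45, less negative than the -0.68 of all genes tested. At matched wells that median was -0.34 against 0.17 over all genes. Of 20 lysosome genes tested, 12 were lower and 0 higher, and 3 were lower at matched wells. Without spinal cord replicate 4 the count was 7, on the plate of cerebellum and spinal cord alone 2, and on that of forebrain and midbrain 0. Ctsa, the protective protein of lysosomal galactosidase, had 1089.7, 2165 and 3290.2 CPM against 2754, 3532 and 4145, lower in 14 of 15 region samples (-0.71 ± 0.12, adjusted p = 0.000575, and 0.00672 at matched wells). Npc2, which hands cholesterol out of the lysosome, was lower by -0.71 ± 0.14 (adjusted p = 0.00244), and the call was lost at matched wells (-0.59, adjusted p = 0.103) and on either plate alone. Man2b1, a lysosomal mannosidase, was lower by -0.48 ± 0.09 (adjusted p = 0.00261, and 0.0442 at matched wells).

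Receptors of growth factors and their adaptors had a median of -0.68, the same as all genes tested. Against 3.42% of all genes tested, 1 gene of the 19 tested here was lower. It was Csf1r, the receptor on which microglia depend for survival and growth, with 5919.7, 8874 and 13939 CPM against 9216, 11366 and 14064 (-0.38 ± 0.09, adjusted p = 0.0117). That call was lost without spinal cord replicate 4, at matched wells (-0.33, adjusted p = 0.227), with DESeq2, with members at 50 or more CPM and on either plate alone. Tyrobp, an adaptor of such receptors, had a value of -0.35 ± 0.13 (adjusted p = 0.117). Of 17 tested transcription factors of myeloid cells 0 were called, and Maf came nearest (-0.67 ± 0.23, adjusted p = 0.0903).

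**Figure D5:**
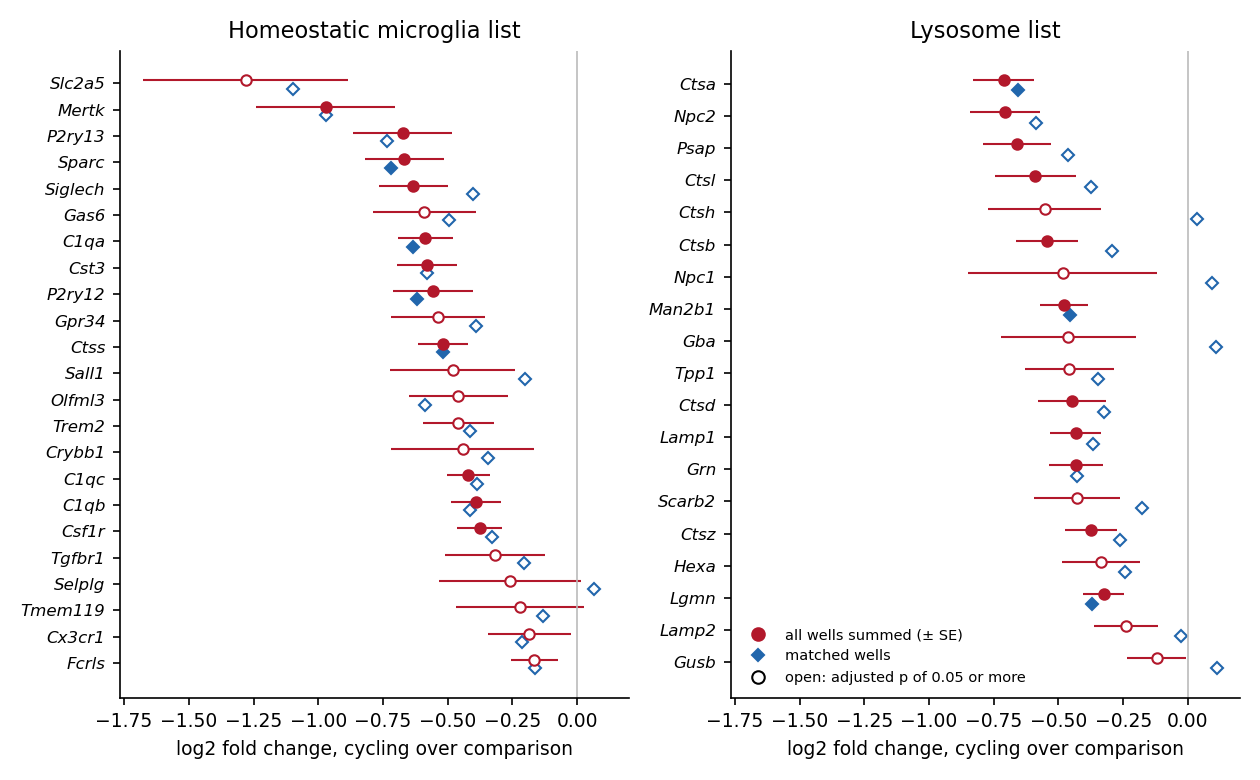
Log2 fold change of cycling over comparison wells (horizontal axis) for genes of the homeostatic microglia list (left) and of the lysosome list (right), leaving out what both lists hold, with SE bars for all wells (red circles) and values at matched wells (blue diamonds). Filled symbols had an adjusted p under 0.05; all red symbols lie below 0, and filled blue diamonds are C1qa, Ctss, P2ry12 and Sparc on the left and Ctsa, Lgmn and Man2b1 on the right.

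With all wells and with matched wells alike, 27 genes were lower in members. Beside those named above they included Abca1, Asah1, Cd300a, Cd37, Itm2b, Lgmn, Mpeg1, Ncf1, Sepp1, Sirpa, Txnip and Unc93b1. Some were chosen for naming after their values were seen. Itm2b, a membrane protein that binds the amyloid precursor, had 1978.9, 3106 and 4997 CPM against 4372, 5407.5 and 7643 and was lower in 15 of 15 region samples (-0.79 ± 0.08, adjusted p = 1.8e-06). Sepp1, a secreted selenium carrier, was lower in 15 of 15 (-0.61 ± 0.07, adjusted p = 1.32e-05). Sirpa, the inhibitory receptor for CD47, was lower in 15 of 15 (-0.88 ± 0.13, adjusted p = 0.000136). Abca1, the cholesterol exporter, was lower in 15 of 15 (-1.29 ± 0.21, adjusted p = 0.00051), and Mpeg1, a pore-forming protein of macrophages, in 14 of 15 (-0.97 ± 0.16, adjusted p = 0.000468).

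The largest fitted falls were of another kind. The 12 named by rule were Tcp11l2, Rfesd, Fahd2a, Tmem150a, Zfp783, Gatsl3, Pigl, Mapkapk3, Ppm1l, Angptl7, C1rl and Lpin1, and each was at 0 in 8 to 14 of the 15 member sums. Tcp11l2 had 14 counts in members against 6929 in comparison wells and was at 0 in 14 of 15 member sums, against 1 comparison sum. Angptl7 had a median of 0 in member sums and 61.5 CPM in comparison sums (adjusted p = 0.00183), and its call was lost at matched wells (adjusted p = 0.078). Of the 324 lower genes, 69 were at 0 in 10 or more member sums. Of the 227 lower genes with at least 20 CPM in comparison sums, 132 were not at 0 in any sum. Member sums held fewer wells than comparison sums, and the part of this in the falls was not tested beyond the matched wells. Among the 12 falls named by rule only Angptl7 was tested at matched wells, so that fit says nothing of the others. Without the region-sample block Tcp11l2, Fahd2a and Lpin1 kept their call, and the rest of the 12 lost it.

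Lists of general metabolism are read against the 2.49% of all tested genes that were higher and the 3.42% that were lower. Of 65 tested genes of nuclear oxidative phosphorylation 1 was higher, with a median of 0.02. It was Sdha, a subunit of succinate dehydrogenase, with 301, 669 and 1486 CPM against 164, 441 and 672 (0.58 ± 0.13, adjusted p = 0.00863), a call that was lost at matched wells. Of 75 cytosolic ribosomal protein genes 1 was lower, Rps9 (-0.46 ± 0.12, adjusted p = 0.0197), and it was lost at matched wells and without spinal cord replicate 4. Of 17 genes of cholesterol synthesis 1 was lower, Pmvk, the phosphomevalonate kinase, with a median of 0 CPM in member sums against 15.9 (adjusted p = 0.0194). None was called of 15 glycolysis, 20 actin, 7 mitochondrially encoded, 6 interferon response, 9 chemokine and cytokine, and 12 immediate early and stress genes tested. Pkm, the pyruvate kinase, came nearest in glycolysis (0.45 ± 0.19, adjusted p = 0.166).

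Of the tested markers of other cells, 0 were called, against 5.9% of all genes tested, but few markers could be tested. These were 2 of 12 neuronal, 6 of 12 progenitor, 0 of 10 erythroid and 1 of 12 monocyte and neutrophil markers. Of endothelial and mural markers 2 of 12 were tested, of astrocyte and oligodendrocyte markers 1 of 12, and of lymphocyte markers 2 of 12. The absence of calls therefore says little about these cells. Of 12 border macrophage markers 4 could be tested, and their summed level was 35.4, 594 and 1609 CPM in members and 272, 631 and 1363 CPM in comparison sums. Neuronal markers summed to 0, 35.9 and 186 CPM in members and 9.86, 48.0 and 504 CPM in comparison sums. Monocyte and neutrophil markers summed to 0, 3.16 and 56.7 against 0.347, 5.61 and 39.4 CPM, with 6 of 12 markers, Ly6c2, Ly6g, Ngp, S100a8 and S100a9 among them, at 0 in all member sums. Erythroid markers summed to 0, 1.26 and 187 against 0, 2.12 and 45.2 CPM, with 5 of 10, Hba-a2, Hbb-y, Hemgn and Klf1 among them, at 0 in all member sums. Markers of neural progenitors and radial glia summed to 72.9, 172 and 772 against 42.3, 146 and 234 CPM, with 3 of 12, Sox2 and Hes5 among them, at 0 in all member sums. In all comparison sums, which held more wells, 4 monocyte and neutrophil, 2 erythroid and 1 progenitor markers were at 0. Nes, the intermediate filament of progenitors that other dividing cells also make, had 0, 57.1 and 149.6 CPM against 0.473, 21.3 and 55.4 and was not called (1.25 ± 0.71, adjusted p = 0.293). Endothelial and mural markers summed to medians of 83.6 and 87.3 CPM, and astrocyte and oligodendrocyte markers to 48.3 and 48.3. Lymphocyte markers summed to 904, 1255 and 2661 against 974, 1418 and 1820 CPM, most of it Ighm, with 846 to 2661 CPM in members and 848 to 1764 CPM in comparison sums (-0.03 ± 0.15, adjusted p = 0.925).

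Whether the cycling change differed between regions of a plate was asked with an interaction term. For midbrain against forebrain 0 genes were called of 9486 (0.0%), with 610 at an unadjusted p under 0.05 (6.43%) and a smallest adjusted p of 0.175. For spinal cord against cerebellum 0 were called (0.0%), with 229 at an unadjusted p under 0.05 (2.41%) and a smallest adjusted p of 0.542. DESeq2 called 543 and 80 genes, edgeR without a filter on low counts 9 and 10, and edgeR without the block 9 and 1. Of 196 division genes tested, 13 and 5 reached an unadjusted p under 0.05, and their smallest adjusted p was 0.706 and 1.0. For Tyms the log2 fold change was 4.54 in forebrain, 3.34 in midbrain, 3.60 in cerebellum and 3.08 in spinal cord, and for Cdk1 it was 3.799, 2.86, 4.26 and 3.18 in the same order. For C1qa the values were -0.52, -0.62, -0.53 and -0.66, and for Apoe -1.03, -0.74, -0.59 and -1.02. The 4 values of each of these genes shared a sign.

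Another state of embryonic microglia is marked by Gpnmb, a glycoprotein of phagocytic cells, and Spp1, which encodes osteopontin. Both genes were at 10 or more CPM in 5 of 97 members (5.16%, exact 95% interval 1.70 to 11.6%), in 11 of 422 comparison wells (2.61%, 1.31 to 4.62%) and in 8 of 125 wells between the classes (6.40%, 2.80 to 12.2%). The mean difference over 15 region samples was 4.25 percentage points, higher in 5 and lower in 6 of them (exact permutation, two-sided, p = 0.229), and it did not exceed the spread.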

How the data were processed

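Single microglia of embryonal CD1 mice were measured by SmartSeq2. The deposited table holds raw read counts per gene and well for 2688 wells, 48587 gene rows and 92 spike-in rows, not normalised. STAR 2.5.2b, featureCounts 1.6.2 and build GRCm38 are named in the submitters' processing notes. The strand setting is not given in the sources used here. The 716 gene rows that share a symbol were kept apart. Identical wells were looked for among embryonal wells and 0 were found.

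The members, lists and tests were chosen with earlier results of these data known. Wells of plate columns 3 to 24 were used, as the rule sets. Counts were summed per region sample and class, and tested with edgeR 4.0.16 (R 4.3.3; TMM, filterByExpr, robust quasi-likelihood F test, region sample as block, two-sided, Benjamini-Hochberg). Members and comparison wells of a region sample share replicate, region and plate, which is where the pairing comes from. The fit was tested on simulated counts. Shares and well measures were tested with exact permutations (SciPy 1.17.1, NumPy 2.4.6, pandas 2.3.3, Python 3.11.15); 70 assignments or 32768 sign flips were enumerated. Shares of wells carry exact binomial (Clopper-Pearson) intervals, which cover counting error only. Thinning took each well to 43334 counts, the 10th percentile, and left out 7 member, 37 comparison and 21 other embryonal wells. Matched wells paired each member with the comparison well of its region sample nearest in gene counts, an alternative added after seeing the data. DESeq2 1.42.0 was another alternative.

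Named genes were the 12 largest rises and 12 largest falls among called genes with a mean of at least 20 CPM in the higher class and 1 direction in at least 3 in 4 region samples, the 10 largest rises outside the division lists, and in each list the 3 with the smallest p (in division lists also the one with the largest p); predicted genes and shared symbols were left out of the largest changes. Genes named beyond this rule (Tmem119, Cx3cr1, Fcrls, P2ry12, Sparc, Ccnd1, Ccne2, Rrm1, Kif11, Tubb4b and the genes lower with all and with matched wells) were chosen after their values were seen. Some genes that the rule names are not reported here. Promoters were read from a RefSeq table of GRCm38.p6.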

Additional observations from a re-analysis of the deposited data

Results flagged for a closer look

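In 3 regions the gap from 1 of the 4 replicates to the other 3 took most of the range of their shares of cycling wells. Cerebellum replicate 1 had 18.8% (3 of 16 wells) with the gap to its nearest neighbour taking 0.911 of the range, forebrain replicate 4 had 10.9% (5 of 46 wells, 0.877 of the range), and midbrain replicate 4 had 22.2% (8 of 36 wells, 0.893 of the range). Chance flags about 1 in 20 such groups.

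Among the 104 thinned wells that had reads of only 1 of Mki67 and Top2a, or of both below the threshold, 14 showed at least as many division genes as the lower quartile of cycling wells, against 0 of 385 comparison wells. These wells stand in no class of the comparison.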

How the results depend on the processing

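The number of genes called between cycling and comparison wells was 560. It was 219 at matched wells, 354 with at least 5 wells per class, 999 without a filter on low counts, 2620 with DESeq2, 61 on the plate of forebrain and midbrain and 182 on that of cerebellum and spinal cord, and 445 to 528 with 1 region sample left out. With no replicate block it was 419. In the interactions edgeR called 0 and 0 genes; DESeq2 called 543 for midbrain against forebrain and 80 for spinal cord against cerebellum, no filter gave 9 and 10, and no replicate block 9 and 1. Of 76 named genes with a call, 10 of 57 tested lost it at matched wells, 13 without the block, 37 of 62 on the first plate and 20 of 74 on the other; 0 turned. A plate alone held fewer samples, and the cause of these losses was not tested.

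With 1 replicate left out the difference in shares kept its sign. It was 6.10 to 9.29 points for midbrain minus forebrain and 6.71 to 16.0 for spinal cord minus cerebellum. The latter was past the threshold at 16.0 without spinal cord replicate 1, where the ranges no longer overlapped and p was the smallest possible. With the replicate number as a block, sign flips of 4 differences gave 8.22 points (exact permutation p = 0.125, the smallest that design allows) and 10.9 points (p = 0.25). Deviations of same-numbered samples correlated at -0.0574 to 0.117 over 3159 genes, and 3 of 8 samples correlated best with their own number. So few samples cannot decide whether a number marks the same mouse in both regions of a plate. The log2 ratio of gene counts per well, 0.02, was -0.0805 with class means and -0.14 to 0.21 with 1 region sample left out; the mitochondrial difference was -0.00392 to 0.47 points. Gene counts per spike-in count gave 0.28 with class means (adjusted exact permutation p = 0.103) and 0.37 to 0.47 with 1 left out. The number of wells per member sum, 3 to 15, limits what can be seen of low genes.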
